A study of Mus musculus with 5 samples.

Results

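Serpins are a family of folded proteins, named after serine protease inhibitors, and the mouse genome holds many of them in lettered clades. The genes described here were those whose symbol begins with Serpin, a clade letter from a to i and a digit, and whose deposited value reached 10 in at least 2 of the 5 libraries. This gave 28 genes of the 11048 with a symbol, in 8 clades: 14 in clade A, 6 in clade B, 2 each in clades E and F, and 1 each in clades C, D, G and H. One more matching gene, Serpina4-ps1, stayed under the minimum with 2, 2 and 9 reads in the vehicle libraries and 0 in both SR4 libraries. The libraries came from the liver of db/db mice, which lack a working leptin receptor and become obese and diabetic. The mice were acclimatized for 1 week and then gavaged for 5 weeks with vehicle or with 10 mg/kg of SR4. SR4 is a compound that the series title calls a fatty acid-activated proton transporter. There were 3 vehicle and 2 SR4 libraries. The db/db genotype, shared by both groups, comes from the design text of the series, while the genotype labels give only the treatment. The sources used here give no ages. No label states whether the samples are separate animals, so the p-values measure the spread between samples, part or all of which may be technical.

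An inhibitory serpin offers a protease an exposed loop as bait, and when the loop is cut the serpin refolds and traps the enzyme. Several members have lost this activity and carry hormones or help other proteins fold. The liver secretes most of the serpins of blood plasma, among them antitrypsin, antithrombin, heparin cofactor II, alpha-2-antiplasmin and C1 inhibitor, which restrain elastase, clotting, fibrin breakdown and complement.

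Values below are normalised counts, that is, deposited counts at a common library size of 25494249 divided by a library scaling factor (trimmed mean of M-values, TMM). Means stand with their SD (vehicle n = 3, SR4 n = 2). Fold changes compare SR4 with vehicle on the log2(value + 1) scale, with the standard error (SE), and adjusted p-values are from limma with Benjamini-Hochberg adjustment over all 10542 genes tested. Read totals recovered from the deposited values ran from 22878374 to 28113096 per library. Liver identity was checked on 5 of 6 hepatocyte markers with a value. They summed to between 1958760 and 2597280 in the vehicle libraries and to between 2108980 and 2689400 in the SR4 libraries. Most of each sum was Alb, so it says little about the other markers. Apoa1, for example, had 133397 and 29541 in SR4 libraries 1 and 2. Vehicle library 1 was the highest of the 3 vehicle libraries for 12 members and the lowest for 13. It exceeded 2 times the mean of vehicle libraries 2 and 3 at 6 members, among them Serpina12, Serpina7, Serpinb6a, Serpinb6b and Serpine2. These counts were not made over all genes, so they do not show a departure particular to the Serpin genes.

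Serpina6, which encodes corticosteroid-binding globulin, the plasma carrier of corticosterone, was the member that passed the test. Its normalised counts were 6721, 8661 and 9387 in vehicle libraries 1, 2 and 3, and 16351 and 18594 in SR4 libraries 1 and 2. Both SR4 libraries lay above every vehicle library, and the lower of them was well above the highest vehicle value. Serpina6 (chr12:103646630-103657212, minus strand, GRCm38) rose 2.13-fold, from 8256 ± 1378 to 17472 ± 1586, a log2 fold change of 1.09 (SE 0.18, adjusted p = 0.0476). All its recovered reads were whole numbers, and none of its 50-base exon windows occurred in another gene. The call lay close to the threshold: with 1 library left out the log2 fold change stayed between 0.95 and 1.19 while the adjusted p ranged from 0.0510 to 0.187. In liver tissue, more cells of a type and more RNA per cell cannot be told apart, here and for every gene below.

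Among the 28 members, 1 was higher in SR4 at an adjusted p under 0.05 (3.57%), against 0.436% of all genes tested that were higher and 1.32% that passed in either direction. No member was lower at that threshold by limma, against 0.882% of all genes, and limma-voom called 0 members in either direction, with an adjusted p of 0.0610 for Serpina6. Over all genes the test called 46 higher and 93 lower, and 37 higher and 135 lower when libraries were scaled to equal totals only. At an unadjusted p under 0.05, 14 members stood out (50%), against 21.4% of all genes. Of these, 11 were higher in SR4 (39.3%), against 10.2% of all genes, and 3 were lower (10.7%), against 11.1%. The SR4 libraries lay outside the vehicle range in 17 members (60.7%), against 41.6% of all genes. In 14 members (50%) both SR4 libraries lay above the vehicle range, against 21.1% of all genes, and in 3 members (10.7%) both lay below it, against 20.5%. The fitted change was above 0 in 18 members (64.3%), against 49% of all genes, and below 0 in 10, against 51%. The counts of higher members at an unadjusted p, of members above the vehicle range and of fitted changes above 0 each include Serpinb1c, which entered the test through its SR4 values alone. These 3 counts also take Serpina1a, Serpina1b, Serpina1c and Serpina1d, and Serpinb1a beside Serpinb1c, as separate members. Such copies may share reads, so their changes are not independent, and the shares over all genes are no exact match. The median log2 fold change was 0.21 over the members and -0.01 over all genes. Scaling to equal totals moved the median of all genes to -0.13 and that of the members to 0.09.

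**Figure D1:**
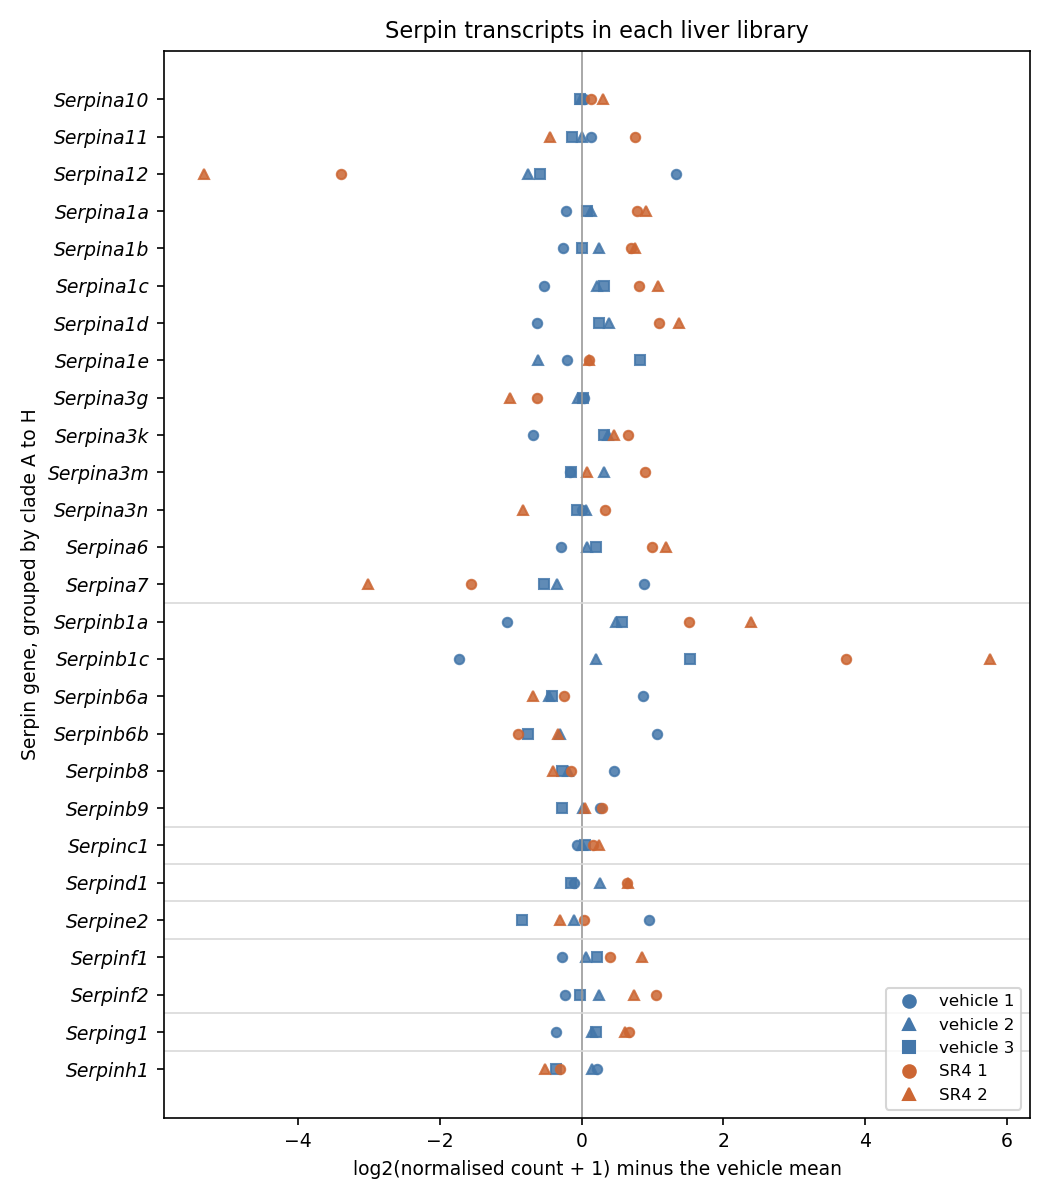
Each point is log2(normalised count + 1) of a reported Serpin gene in 1 library minus the mean of the vehicle libraries, for 3 vehicle (blue) and 2 SR4 (orange) libraries, with genes grouped by clade and symbols marking the library number. Serpina6 shows both SR4 points above all vehicle points, Serpina12 shows both far below them, and vehicle library 1 (blue circle) stands apart at several genes.

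Serpin transcripts made up 1.86%, 2.52% and 2.40% of vehicle libraries 1, 2 and 3, and 3.35% and 3.61% of SR4 libraries 1 and 2. Both SR4 shares exceeded every vehicle share, with means of 3.48% ± 0.19 and 2.26% ± 0.35. The exact two-sided permutation test gave p = 0.2, the smallest value that the 10 arrangements of 3 against 2 libraries allow. Most of this total came from the Serpina1 copies, with 62.9% of Serpin counts in vehicle and 69.4% in SR4.

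Serpina1 encodes alpha-1-antitrypsin, the main plasma inhibitor of neutrophil elastase, which a single gene provides in humans and which the mouse holds as several near-identical copies side by side on chromosome 12. The 5 copies measured were Serpina1a, Serpina1b, Serpina1c, Serpina1d and Serpina1e. Their proximal promoters are shown because they are nearly the same in sequence while the copies differ widely in level. Each line gives 110 bases 5′ to 3′ from RefSeq promoter sequences (GRCm38.p6, minus strand), aligned with each other, with capitals at the positions where the 5 copies are not all the same.
Serpina1a: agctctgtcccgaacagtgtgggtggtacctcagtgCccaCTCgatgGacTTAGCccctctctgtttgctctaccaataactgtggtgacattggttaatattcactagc
Serpina1b: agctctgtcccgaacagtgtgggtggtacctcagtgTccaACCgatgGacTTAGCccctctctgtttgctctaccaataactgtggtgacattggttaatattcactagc
Serpina1c: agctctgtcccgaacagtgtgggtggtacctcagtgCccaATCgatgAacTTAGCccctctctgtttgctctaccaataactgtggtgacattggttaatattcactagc
Serpina1d: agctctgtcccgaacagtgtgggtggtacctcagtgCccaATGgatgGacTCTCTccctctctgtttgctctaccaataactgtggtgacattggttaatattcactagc
Serpina1e: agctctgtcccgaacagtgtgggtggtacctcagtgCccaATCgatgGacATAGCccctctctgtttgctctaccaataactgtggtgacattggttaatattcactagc
These windows lie at chr12:103863625-103863734 for Serpina1a, chr12:103738200-103738309 for Serpina1b, chr12:103904962-103905071 for Serpina1c, chr12:103773634-103773743 for Serpina1d and chr12:103956960-103957069 for Serpina1e. Any 2 of them were identical at 93.6% to 98.2% of positions. Counted from the 5′ end and relative to Serpina1a, Serpina1b carried C37T, C41A and T42C, and Serpina1c carried C41A and G48A. Serpina1d carried C41A, C43G, T52C, A53T, G54C and C55T, and Serpina1e carried C41A and T51A. The annotated start lay 6, 11, 12 and 1 bases past the last base shown in Serpina1a, Serpina1b, Serpina1c and Serpina1d, and 63 bases past it in Serpina1e. Motifs were searched over the 250 bases before each start, on both strands, in 27025 promoters, 21 of them of members. TTGCNNAA, a C/EBP motif, occurred in 9.55% of all promoters and in 5 members, Serpina1b, Serpina1d, Serpina1e, Serpina7 and Serpina12. The matched letters were the same in Serpina1b, Serpina1d and Serpina1e, so these matches in near-identical copies are not independent. TTCNNNGAA, a STAT motif, occurred in 7.18% of all promoters and in 3 members, Serpina3g, Serpina11 and Serpinb6a. CAAAGTC, an HNF4 motif, occurred in 3.80% of all promoters and in Serpinh1 alone among the members. Matches of different motifs did not overlap in the member promoters, and a match describes letters only.

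Serpina1b, the copy with the most counts, had 125523, 177029 and 151241 normalised counts in vehicle and 243321 and 253620 in SR4. Serpina1c had 57361, 96175 and 103216 in vehicle and 146107 and 174714 in SR4. Serpina1d had 40609, 81993 and 74531 in vehicle and 134568 and 162881 in SR4. In each of these copies both SR4 libraries lay above all vehicle libraries, and vehicle library 1 was the lowest. Serpina1a, with 41886, 53374 and 51070 in vehicle and 83690 and 91440 in SR4, showed the same separation. The log2 fold changes were 0.73 for Serpina1b (SE 0.23, adjusted p = 0.145), 0.95 for Serpina1c (SE 0.30, adjusted p = 0.142), 1.24 for Serpina1d (SE 0.33, adjusted p = 0.109) and 0.85 for Serpina1a (SE 0.19, adjusted p = 0.0823), so none passed. Serpina1e was far lower than the others, between 153 and 421 normalised counts in vehicle and at 255 in both SR4 libraries. Its SR4 values lay inside the vehicle range, with a log2 fold change of 0.11 (SE 0.41, adjusted p = 0.903) that turned to -0.01 when libraries were scaled to equal totals.

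Reads cannot always be given to a single Serpina1 copy. Of the 50-base exon windows, 79.3% in Serpina1c, 57.6% in Serpina1a, 50.9% in Serpina1d, 34.6% in Serpina1e and 29.5% in Serpina1b also occurred in another gene. The values of the single copies are therefore uncertain, and their sum was fitted as 1 gene. The summed counts were 265584, 408724 and 380479 in vehicle and 607941 and 682910 in SR4. The groups did not overlap, and the sum was 1.86-fold higher in SR4 (351595 ± 75815 against 645426 ± 53011), a log2 fold change of 0.90 (SE 0.28, adjusted p = 0.139) that did not pass. Within the sum, Serpina1b held 47.3%, 43.3% and 39.8% in vehicle and 40.0% and 37.1% in SR4. Serpina1d held 15.3%, 20.1% and 19.6% in vehicle and 22.1% and 23.9% in SR4. The Serpina1d share was thus above the vehicle range in both SR4 libraries, while that of Serpina1b overlapped it.

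**Figure D2:**
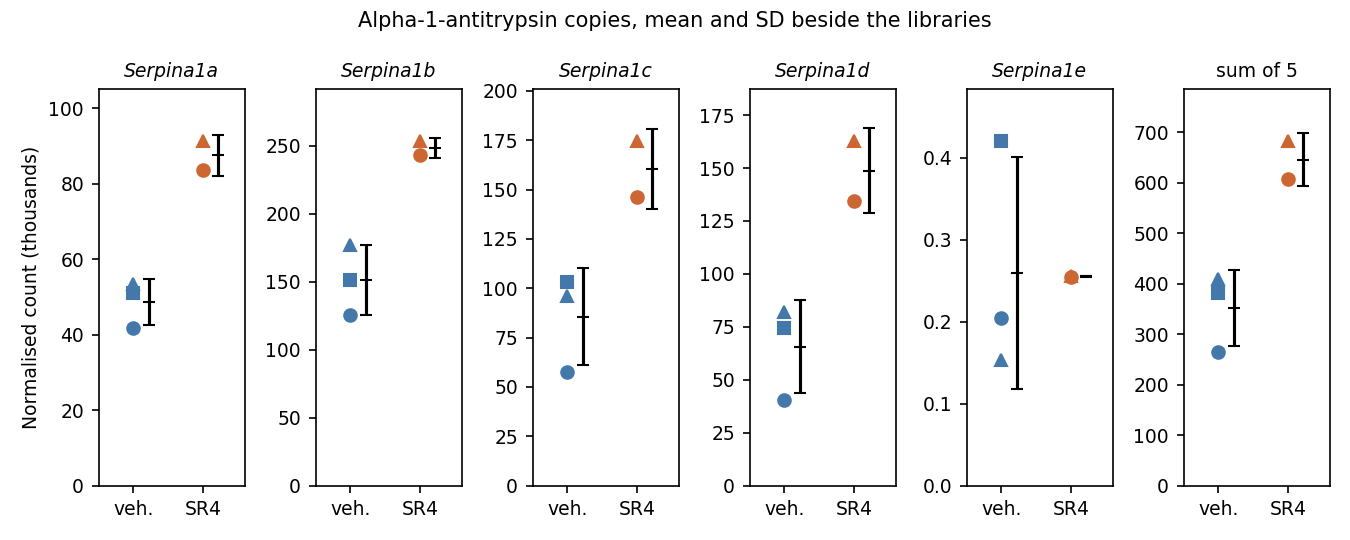
Normalised counts, in the unit printed on the axis, of the 5 Serpina1 copies and their sum in 3 vehicle (blue) and 2 SR4 (orange) libraries, each panel on its own axis from 0, with the mean and SD as black bars. The sum is 607941 and 682910 in the SR4 libraries and at most 408724 in the vehicle libraries, and for Serpina1e both SR4 libraries lie inside the vehicle range.

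The Serpina3 genes are the mouse relatives of human alpha-1-antichymotrypsin, an acute phase inhibitor of cathepsin G and chymotrypsin-like proteases. Serpina3k, the highest of them per kilobase, had 31659, 65618 and 63220 normalised counts in vehicle and 80180 and 69897 in SR4. Both SR4 libraries lay above the vehicle range by a small margin over vehicle library 2, with a log2 fold change of 0.56 (SE 0.34, adjusted p = 0.391). Serpina3g, a copy known from lymphocytes and macrophages, was lower in both SR4 libraries, with 166, 157 and 165 in vehicle and 105 and 80.6 in SR4. Its groups did not overlap, and the log2 fold change was -0.81 (SE 0.20, adjusted p = 0.0981). Serpina3m ran from 8540 to 11930 in vehicle and from 10100 to 17867 in SR4, and Serpina3n from 9547 to 10430 in vehicle and from 5630 to 12550 in SR4. Both overlapped between groups, with log2 fold changes of 0.49 and -0.25 and adjusted p-values of 0.359 and 0.696. The 4 Serpina3 genes may share reads, and Serpina3k lies inside the annotated span of Serpina3m. Their sum gave a log2 fold change of 0.45 (adjusted p = 0.413). Beside Serpina3g, 7 of 8 macrophage and Kupffer cell markers had a value, and their sum ran from 4402 to 6654 in vehicle and from 2204 to 4398 in SR4, while 0 of 8 T and NK cell markers and 0 of 4 B cell markers had one. The part of these cells in the result was not tested.

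Serpina12, or vaspin, an adipose-derived inhibitor of kallikrein 7 that is also made in liver, had the most negative fitted change of the family. Its normalised counts were 1626, 381 and 430 in vehicle libraries 1, 2 and 3, and 60.7 and 15.0 in SR4 libraries 1 and 2. These values rest on 1669, 404 and 392 recovered reads in vehicle and 63 and 15 in SR4, so counting error was largest in SR4 library 2. Both SR4 libraries lay far below all vehicle libraries, and the spread within each group was also wide. The mean on the log2 scale was 20.5-fold lower in SR4, a log2 fold change of -4.36 (SE 0.84, adjusted p = 0.0767), which did not pass. With 1 library left out the log2 fold change ran from -5.33 to -3.39. None of the 4 adipocyte markers looked up had a value in the table.

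Serpina7, thyroxine-binding globulin, which carries thyroid hormone in plasma, lies on the X chromosome and was the member of clade A outside chromosome 12. Its normalised counts were 2820, 1200 and 1057 in vehicle and 517 and 188 in SR4. Both SR4 libraries lay below all vehicle libraries, and vehicle library 1 was more than 2 times the mean of the others. The log2 fold change was -2.29 (SE 0.59, adjusted p = 0.118), and -1.85 without vehicle library 1. Over all fits with 1 library left out it ran from -3.01 to -1.56. Serpina10, the protein Z-dependent inhibitor of clotting factor Xa, ran from 3244 to 3372 in vehicle and from 3612 to 4060 in SR4. The log2 fold change of 0.22 (SE 0.11) had an adjusted p of 0.323. Serpina11, a liver member with little known of its function, ran from 833 to 1003 in vehicle and from 670 to 1541 in SR4, so that the SR4 libraries fell on either side of the vehicle range.

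On chromosome 12 the 13 clade A genes lie in a single cluster, whose gene order is not the order of their changes. Serpina6, the Serpina1 copies, Serpina11 and Serpina12 are neighbours on the minus strand, with fitted log2 fold changes from 1.24 at Serpina1d to -4.36 at Serpina12. Serpina3g, Serpina3k, Serpina3m and Serpina3n follow on the plus strand.

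**Figure D3:**
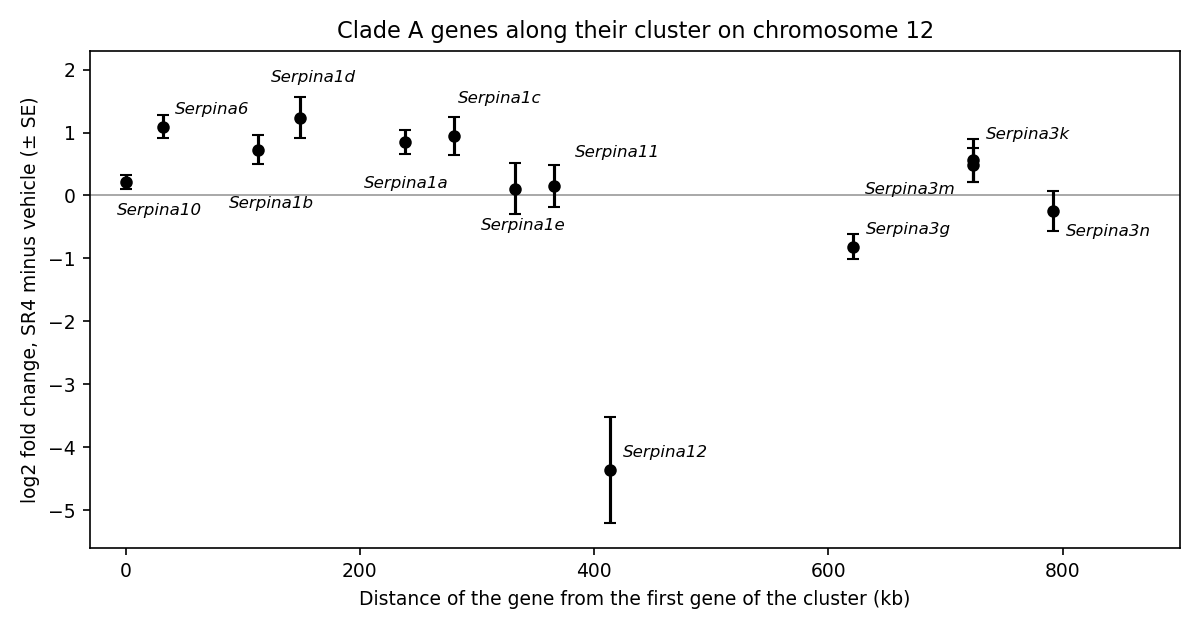
Log2 fold change of SR4 over vehicle, with its SE as bars, for the 13 clade A genes against the distance in kilobases from the first gene of the chromosome 12 cluster. Serpina6 is at 1.09 and Serpina12 at -4.36, and the remaining genes lie between -0.81 and 1.24.

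Clade B serpins mostly stay inside the cell and guard it against proteases of its own granules and lysosomes. Serpinb1a, an inhibitor of neutrophil elastase and cathepsin G, had 231, 674 and 712 normalised counts in vehicle and 1379 and 2524 in SR4. The groups did not overlap, and the log2 fold change was 1.95 (SE 0.56, adjusted p = 0.142). Its neighbour Serpinb1c, a close copy, rested on 0, 3.12 and 8.32 recovered reads in vehicle and 46.7 and 184 in SR4. Serpinb1c reached the minimum value of 10 in its 2 SR4 libraries and in no vehicle library, so it is tested only because it is high in SR4, and its values are given with no fold or p. It had no fit when either SR4 library was left out. Fractional reads occurred in both genes, and the sum of Serpinb1a and Serpinb1c gave a log2 fold change of 2.02 (SE 0.58, adjusted p = 0.139). Of 8 neutrophil markers, 2 had a value, S100a8 and S100a9, and their sum ran from 15.6 to 41.7 in vehicle and from 15.1 to 17.2 in SR4. S100a8 had 5.82, 4.72 and 2.28 in vehicle and 3.79 and 6.06 in SR4, and S100a9 ran from 13.3 to 35.9 in vehicle and from 9.05 to 13.5 in SR4. Both overlapped between groups, and the part of neutrophils in the result was not tested.

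The other clade B members were low and overlapped between groups. Serpinb6a ran from 243 to 614 normalised counts in vehicle and from 209 to 281 in SR4, and Serpinb6b from 25.5 to 92.2 and from 23.0 to 34.3. Serpinb8 ran from 96.6 to 162 in vehicle and from 87.7 to 105 in SR4. Serpinb9, which protects cells from granzyme B, ran from 156 to 226 in vehicle and from 197 to 232 in SR4. Their log2 fold changes were -0.47, -0.62, -0.28 and 0.17, in that order, and none passed.

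The plasma serpins of clades C, D, F and G that act on clotting, fibrin breakdown and complement had SR4 values above the vehicle range in each of the 4 genes below, against 21.1% of all genes, and none passed the test. They belong to the members with the higher levels. Among all genes at such levels 68.9% had a fitted change above 0, which is a looser measure. The share of those genes above the vehicle range was not counted. Serpinc1, antithrombin, the main inhibitor of thrombin and factor Xa, had 59969, 62672 and 64599 normalised counts in vehicle and 70045 and 74040 in SR4. This was a small shift, with a log2 fold change of 0.21 (SE 0.17, adjusted p = 0.527), and 33.6% of its 50-base windows also occurred in another gene, mostly Zbtb37. Serpind1, heparin cofactor II, which inhibits thrombin, had 10845, 14057 and 10528 in vehicle and 18203 and 18444 in SR4. The SR4 libraries were close together and above all vehicle libraries, with a log2 fold change of 0.65 (SE 0.17, adjusted p = 0.110). Serpinf2, alpha-2-antiplasmin, the inhibitor of plasmin, had 10864, 15184 and 12577 in vehicle and 26340 and 21269 in SR4. Its log2 fold change was 0.89 (SE 0.20, adjusted p = 0.0767). Serping1, C1 inhibitor, which blocks the first proteases of complement and the contact system, had 9849, 14042 and 14523 in vehicle and 20140 and 19395 in SR4. Its log2 fold change was 0.65 (SE 0.20, adjusted p = 0.142).

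Serpinf1, pigment epithelium-derived factor, is a secreted member without inhibitory activity that limits vessel growth. It had 14347, 18260 and 20198 normalised counts in vehicle and 22998 and 31460 in SR4. Both SR4 libraries lay above the vehicle range, with a log2 fold change of 0.63 (SE 0.22, adjusted p = 0.169). Serpine2, protease nexin 1, ran from 17.8 to 64.1 in vehicle and from 26.2 to 33.6 in SR4, so the SR4 libraries lay inside the vehicle range. Serpinh1, the collagen chaperone HSP47 of the endoplasmic reticulum, had 425, 402 and 284 in vehicle and 295 and 255 in SR4. SR4 library 1 lay inside the vehicle range, with a log2 fold change of -0.41 (SE 0.20, adjusted p = 0.298). The 9 stellate cell and fibroblast markers, from cells that make much of the collagen of liver, summed to between 12758 and 16759 in vehicle and between 11679 and 14487 in SR4. Ecm1 had a log2 fold change of 0.12, and all the other markers lay below 0, from -0.07 at Colec11 to -1.61 at Col1a1. None of the 9 passed the test, and the part of these cells in the result was not tested.

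Levels between members were compared per kilobase of exon. By mean over all libraries the order began with Serpina1c, Serpina1b, Serpina1d and Serpina1a at 84875, 78736, 70959 and 35094 normalised counts per kilobase, followed by Serpina3k at 30197 and Serpinf1 at 9094. Within vehicle, Serpina1c and Serpina1b were nearly level at 62883 and 62635 and Serpina1d had 47138, while in SR4 Serpina1d at 106689 stood above Serpina1b at 102886. Shared reads make the order among these copies uncertain. The exon length used merges all annotated transcripts of a gene, which affects the order. Serpinc1, with 8.546 kb, had 7754 per kilobase, below Serpinf1. Its counts were above those of Serpinf1, with means of 62413 against 17602 in vehicle and 72042 against 27229 in SR4. The lowest per kilobase was Serpine2 at 4.15. Among the 14 members with the higher levels, 13 had a fitted change above 0 (92.9%) and 9 an unadjusted p under 0.05 with a higher value in SR4 (64.3%), with a median log2 fold change of 0.65. Both counts take Serpina1a, Serpina1b, Serpina1c and Serpina1d as separate members, though these copies may share reads. Among the 1095 genes of all kinds at or above the lowest level of that group, 68.9% had a fitted change above 0, 28.7% had such a p, and the median was 0.15. Among the 14 members with the lower levels, 5 had a fitted change above 0 (35.7%), 2 were higher (14.3%) and 3 lower at an unadjusted p under 0.05, and the median was -0.34. The 8962 genes below that level had a median of -0.03, with 46.5% above 0 and 8.03% higher at an unadjusted p under 0.05. The 2 higher members of this group were Serpinb1a and Serpinb1c. Serpinb1c entered the test through its SR4 values alone, and both the 35.7% and the 14.3% include it. The lower group holds all 6 clade B members, both clade E members, Serpinh1, Serpina1e, Serpina3g, Serpina7, Serpina11 and Serpina12.

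**Figure D4:**
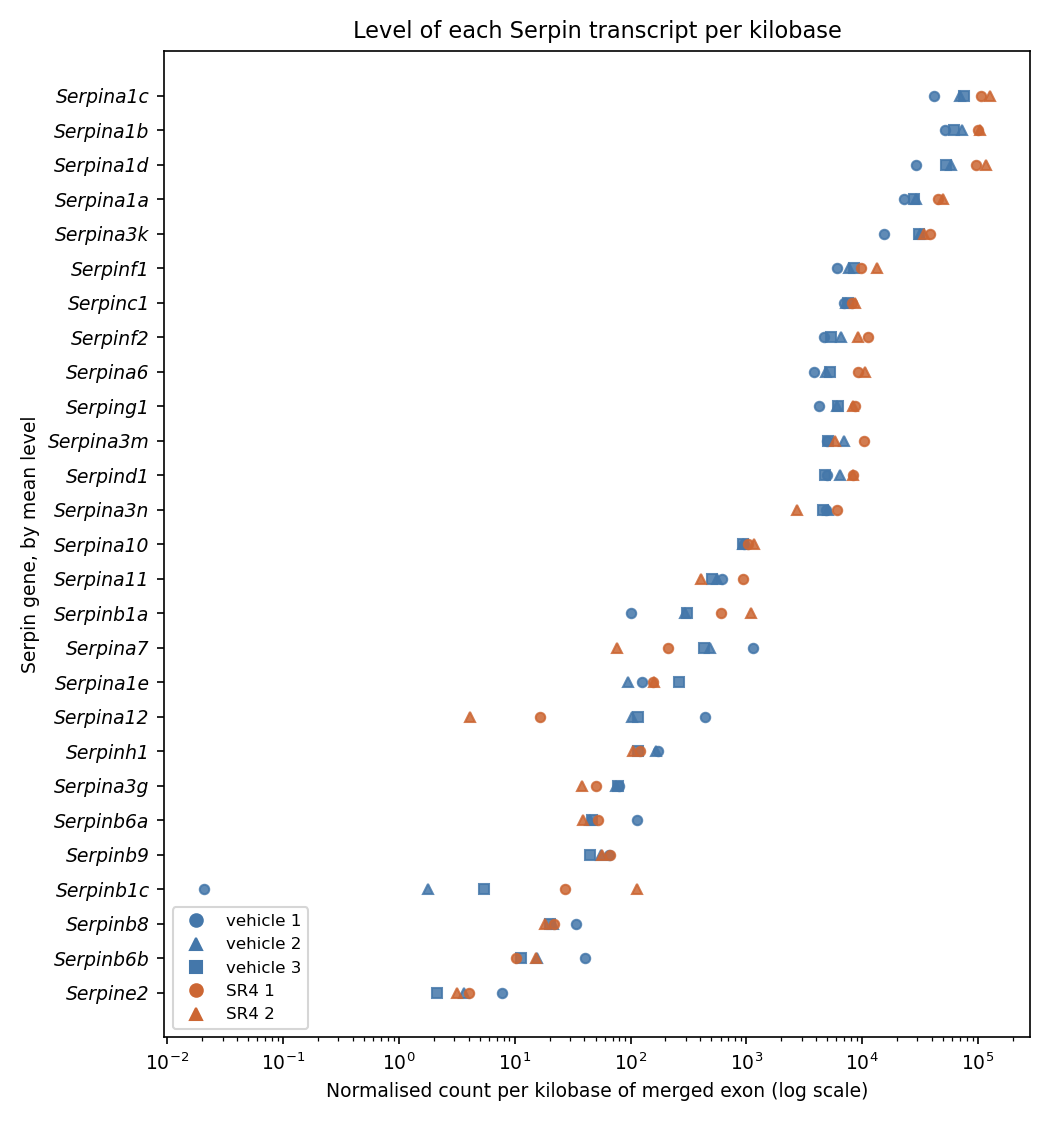
Normalised counts per kilobase of exon, on a log axis, of the reported members in 3 vehicle (blue) and 2 SR4 (orange) libraries, ordered by mean level. The order runs from Serpina1c at a mean of 84875 to Serpine2 at 4.15, and the point far to the left is Serpinb1c in vehicle library 1, where 0 reads were recovered.

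Genes that work with serpins were read beside them from 8 lists. Over all genes tested, 10.2% were higher and 11.1% lower at an unadjusted p under 0.05, and the median log2 fold change was -0.01. Of 19 proteases that serpins inhibit, none passed the test; at an unadjusted p under 0.05, 6 were higher and 2 lower, with a median log2 fold change of 0.33, and the share of lower genes was near that of all genes. F7, clotting factor VII, had 1015, 1624 and 1725 normalised counts in vehicle and 2964 and 3050 in SR4 (log2 fold change 1.09, adjusted p = 0.0767). C1s1, a complement protease that C1 inhibitor blocks, had 11087, 10343 and 9724 in vehicle and 6345 and 4210 in SR4 (2.01-fold lower, adjusted p = 0.0627). In F7 both SR4 libraries were above, and in C1s1 both below, the vehicle range. Of 13 cofactors and clearance receptors none passed, with 6 higher and 1 lower at an unadjusted p under 0.05 and a median of 0.21. Those with the smallest p were Vldlr, a receptor that takes up serpin and protease complexes, at 0.74 on the log2 scale (adjusted p = 0.0803), and Sdc1, a heparan sulfate carrier, at 1.14 (adjusted p = 0.0953).

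Of 24 acute phase proteins outside the serpins, C3 passed, and 9 were higher and 0 lower at an unadjusted p under 0.05 (all genes 10.2% and 11.1%), with a median log2 fold change of 0.26. Of all genes, 0.436% passed as higher. Among the 1095 genes at the levels of the higher Serpin members, 28.7% were higher at an unadjusted p under 0.05, with a median of 0.15. None of the 8 lists was matched for level. C3, the central complement protein, had 94253, 111642 and 103712 normalised counts in vehicle and 245016 and 230010 in SR4. The groups did not overlap, and C3 rose 2.31-fold (log2 fold change 1.21, adjusted p = 0.0471). Of 18 genes of quality control for secreted glycoproteins none passed, with 2 higher and 1 lower at an unadjusted p under 0.05 and a median of -0.11. The smallest p-values belonged to Edem3 at -0.48 (adjusted p = 0.0977) and Os9 at 0.50 (adjusted p = 0.172). Of 19 collagens and collagen-processing genes, the clients and partners of Serpinh1, none passed; 0 were higher and 9 lower at an unadjusted p under 0.05 (all genes 10.2% and 11.1%), with a median of -0.56. Col1a1 was at -1.61 (adjusted p = 0.0856) and Col1a2 at -1.25 (adjusted p = 0.0952).

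For the hormones that Serpina6 and Serpina7 carry, 17 genes of glucocorticoid and thyroid hormone handling were read, and none passed, with 4 higher and 2 lower at an unadjusted p under 0.05 and a median log2 fold change of 0.09. For this and the next 2 lists, the shares of all genes at that p were 10.2% higher and 11.1% lower. Akr1d1, a steroid reductase, was at 0.87 (adjusted p = 0.0806), and Dio1, which activates thyroid hormone, at -1.42 (adjusted p = 0.114). Of 12 genes of the growth hormone and STAT5 axis, which sets sex-biased liver expression, 2 passed as higher, against 0.436% of all genes. At an unadjusted p under 0.05, 3 were higher and 1 lower, with a median of 0.24. Cux2, a transcription factor of female mouse liver, had 7.88, 27.5 and 24.0 normalised counts in vehicle and 687 and 743 in SR4, and rose with a log2 fold change of 5.27 (adjusted p = 0.0264). Prlr, the prolactin receptor, had 1717, 2794 and 2695 in vehicle and 5921 and 7485 in SR4, and rose 2.84-fold (adjusted p = 0.0471). Both genes had SR4 values far above the vehicle range. The sex of the animals was not among the sample variables used here, so its part in these changes was not tested. Of 13 hepatocyte transcription factors none passed, with 2 higher and 1 lower at an unadjusted p under 0.05 and a median of -0.06, and Stat3 at 0.46 (adjusted p = 0.0977) and Nr5a2 at 0.42 (adjusted p = 0.168) had the smallest p.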

How the data were processed

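Liver RNA was sequenced in 5 libraries, grouped by their treatment label. Per the labels' protocols, a TruSeq RNA V2 kit was used, and Partek, TopHat2 2.1.1 and GRCm38 (mm10) are named per the submitters' processing notes; the sources used here give no counter or annotation. The deposited signal values were gene counts that had been adjusted to a common library size of 25494249, as the values themselves show. Inverting that quantile adjustment (common dispersion 0.0767) recovered reads, and 85.3% of 37645 recovered values of low and middling size were whole within 0.02 reads; the rest were fractions of a read. Of 11065 entries, 17 with dates in place of symbols (0.18% of counts) were left out. Coordinates and exon windows came from GENCODE M21 (GRCm38).

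Values divided by TMM factors (trims of 30% and 5%) were tested with limma 3.58.1 in R 4.3.3 on log2(value + 1), with a pseudocount of 1, over genes at 10 or more in at least 2 libraries, with trended and robust empirical Bayes, two-sided, at an adjusted p of 0.05. The fit was also run on simulated counts, with a dispersion below that recovered from these data, and no result here rests on it. Values per library are given for members that passed, the 10 next smallest p-values, the 6 highest levels and the highest of each clade; list genes are those that passed, or the 2 with the smallest p. The members and lists were chosen with earlier results of these data known. Promoters came from RefSeq for 21 members. The values of 1 member are not reported here, though it is counted among the 28. Alternatives were limma-voom, other scalings, filters and pseudocounts, a fit without robust shrinkage, a block for the replicate number and leaving out each library; sums of copies and unadjusted counts by setting were added after seeing the data.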

Additional observations from a re-analysis of the deposited data

How the results depend on the processing

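Of 418 fitted changes of members under the alternatives, 400 kept their direction and side of the threshold, 5 newly passed, 7 no longer passed and 6 changed sign. All 7 lost calls were Serpina6: adjusted p = 0.0610 with limma-voom, 0.0563 with no filter, and 0.0510 to 0.187 with 1 library left out. The cause was not tested. Serpina6 alone had passed in the main fit, and it was refitted under 15 alternatives. For the other members, staying on the same side of the threshold says little about stability. Members called higher numbered 0 with limma-voom, with no filter and with any library left out (range 0 to 0). Over all genes, 14 were called higher and 31 lower with limma-voom, 24 and 60 with no filter, and 1 to 43 and 3 to 149 with 1 library left out. The sign changes were in members far from the threshold: Serpina1e at -0.0075 with equal totals, and, with 1 library left out, Serpina1e from -0.20 to 0.52, Serpine2 from -0.56 to 0.34 (0.039 without SR4 library 2), Serpina11 from -0.45 to 0.75 and Serpina3n from -0.83 to 0.33. Members at an unadjusted p under 0.05 numbered 8 to 11 higher and 2 to 6 lower over all settings, while 5.97% to 10.5% of all genes were higher and 7.04% to 17.3% lower, the extremes 5.97% and 17.3% both with equal totals (11 and 4 members). The counts of higher members take copies that may share reads as separate members, and they include Serpinb1c, which was tested only through its SR4 values. It had no fit with either SR4 library left out, so the filter alone lowers the counts of those settings. The difference in library share, 1.22 percentage points, was 1.02 to 1.35 with 1 library left out.

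The labels give replicates 1 and 2 in both groups but no shared litter, batch or day. Deviations from the group means correlated at 0.17 for vehicle 1 with SR4 1 and 0.11 for vehicle 2 with SR4 2. Vehicle 3, which shares its number with no SR4 library, correlated at -0.10 with SR4 1 and 0.10 with SR4 2. The 2 pairs of equal number are too few to call the samples paired. With the replicate number as a block, 183 genes were called higher and 269 lower. Vehicle library 3 is alone under its number, so it adds nothing to the SR4 estimate of that fit. Leaving it out without a block gave nearly the same change (Serpina7 -2.56 against -2.55) but called 2 genes higher and 3 lower. The block fit has little left to measure spread from, so its further calls do not show that samples are paired. Members called with the block were 3 higher (Serpina6, Serpinb1a and Serpinb1c, the last tested only through its SR4 values) and 3 lower (Serpina12 and Serpina7 among them).

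The planned edgeR and DESeq2 fits were not run, because 85.3% rather than nearly all recovered values were whole. Depth limits Serpinb1c, Serpine2 and the SR4 values of Serpina12, which rest on few reads.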
